A study of Bos taurus with 28 samples.

Results

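The comparison set the liver of ovariectomized cows given estradiol together with progesterone (E2P4T) against liver from the same set of cows given no hormone (CO). It used 14 of the 28 arrays in the series, all 7 whose labels name the exposure to both hormones and all 7 whose labels name the control. All 28 arrays came from percutaneous liver biopsies of female, non-lactating Holstein cows (Bos taurus) whose ovaries had been removed, and each treatment period lasted 14 days. Under E2P4T a cow carried an ear implant of estradiol-17β and intravaginal inserts of progesterone at the same time, and under CO it had neither. The other 7 and 7 arrays were from treatment with estradiol alone (E2T) or progesterone alone (P4T). The study's methods give the progesterone inserts as intravaginal, whereas the labels of P4T call the exposure intradermal. In the study each cow passed through every treatment in a replicated Latin square, so that CO and E2P4T drew on the same set of cows. The study left out 1 array of P4T and 1 of E2P4T as outliers. The labels, however, number the arrays of a group from 1 to 7 and name neither cow nor period nor these outliers. The 7 CO and 7 E2P4T arrays need not come from exactly the same cows. The fit therefore left the pairing by cow out, and the p-values measure the spread between arrays only. Each value is the log2 of an Affymetrix Bovine GeneChip signal intensity, on which a difference of 1 is a doubling. A gene is represented by the brightest of its probe sets, each made of several short probes. Adjusted p are those of limma after Benjamini-Hochberg adjustment over all probe sets, and the unadjusted p is used only to count.

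Estradiol and progesterone reach the liver through the blood and act mainly by way of nuclear receptors, which bind DNA and change the transcription of target genes. The liver inactivates both steroids by hydroxylation and conjugation, and it is also the source of most plasma proteins, among them clotting factors, hormone carriers and apolipoproteins, several of which are known to respond to estrogens. In the cow, the liver additionally makes almost all circulating glucose, largely from propionate, and it secretes insulin-like growth factor 1 (IGF1) in response to growth hormone.

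E2P4T 5 and P4T 4 stood apart from the other arrays before any comparison was made. E2P4T 5 correlated with the median CO array at r = 0.69 over the 24016 probe sets other than controls, P4T 4 at r = 0.81 and the other 26 arrays at 0.89 to 0.95. Of 21 hepatocyte markers, 20 were lower on E2P4T 5 than on all other 27 arrays. Albumin (ALB), the main protein of plasma, stood at 12.06 on it against 16.57 to 18.16 on the others, and APOB, on which the liver assembles lipoproteins, at 5.00 against 14.93 to 16.11. In the opposite direction, 12 of 13 kidney nephron markers were higher on E2P4T 5 than on all other arrays. Uromodulin (UMOD), made by the thick ascending limb of the kidney, had 11.33 against 2.77 to 8.70, and kidney cadherin (CDH16) had 14.42 against 3.95 to 8.75. SLC12A1, the sodium, potassium and chloride cotransporter of that same limb, was the exception at 6.67, within the range of 2.00 to 8.25. The mean log2 signal of the markers, taken as a score, was 10.37 for hepatocytes (15.21 to 15.84 on the other 27 arrays), 11.07 for kidney nephron (4.99 to 7.69), 7.79 for Kupffer cells and macrophages (10.96 to 12.71) and 11.50 for cholangiocytes (6.89 to 8.75). Spiked control RNAs, which check the hybridisation, averaged 18.44 on E2P4T 5 and 17.49 on P4T 4, against 13.18 to 16.45 on the other 26 arrays. P4T 4 had a hepatocyte score of 15.63, inside the range of the others, and the highest scores after E2P4T 5 for kidney nephron (7.69) and cholangiocytes (8.75). CO 7 came close to it for kidney nephron, at 7.66 against 5.57 to 6.77 on the other CO arrays. P4T 4 was kept in the fit, whose spread all groups share, and in the values of P4T. What part these features had in the results was not tested, and the comparison was made with E2P4T 5 and without it. A difference given below without qualification is that without E2P4T 5. In such bulk tissue, fewer cells of a type and less RNA per cell cannot be told apart.

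**Figure D1:**
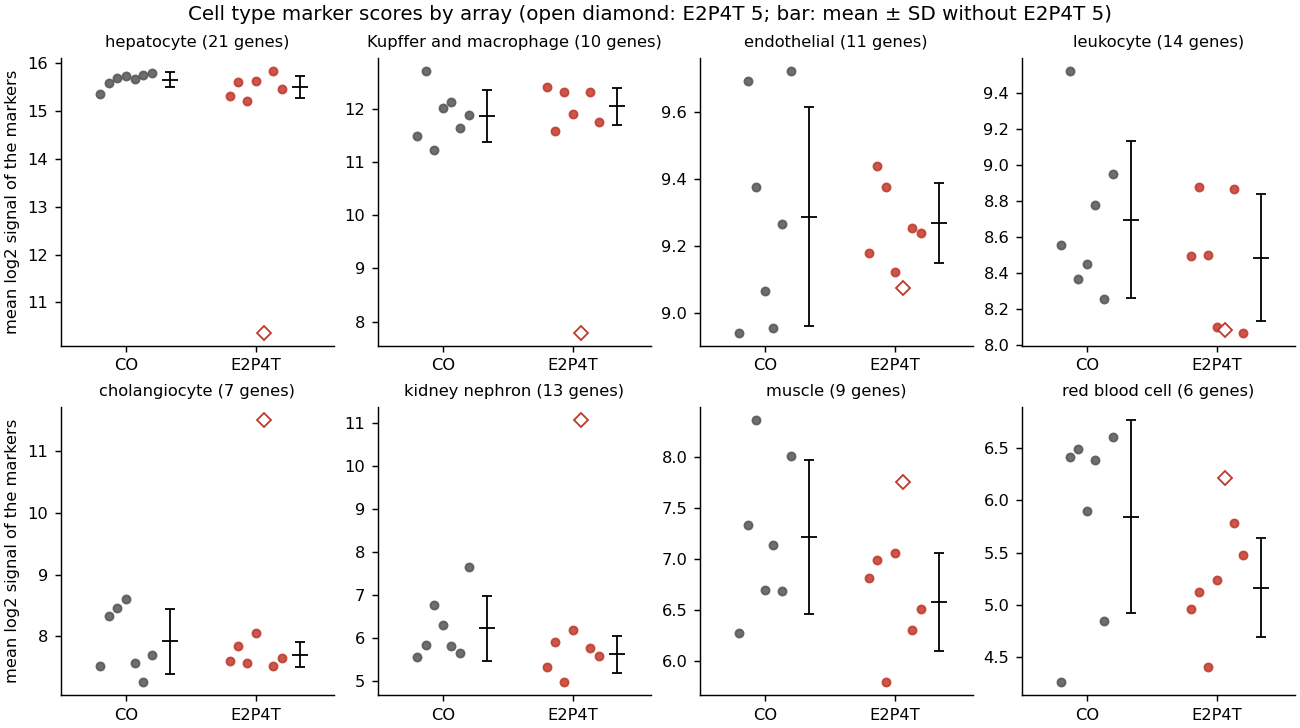
Mean log2 signal of the markers of 8 cell types on each array of CO (grey) and E2P4T (red), with E2P4T 5 as an open diamond and bars at the mean ± SD of 7 CO and 6 E2P4T arrays. E2P4T 5 lies at 10.37 for hepatocytes and 11.07 for kidney nephron, whereas the other E2P4T arrays lie at 15.21 to 15.84 and 4.99 to 6.19.

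Without E2P4T 5 the liver markers of the 2 groups overlapped. The hepatocyte score ran from 15.35 to 15.81 in CO and from 15.21 to 15.84 in the 6 E2P4T arrays. Of the 21 hepatocyte markers, 17 had a negative difference, none at an unadjusted p under 0.05, with a median of -0.24 (0.014 centred and 0.039 under quantile normalization). With all arrays 20 of 21 were negative, with a median of -0.98. ALB had a log2 difference (E2P4T minus CO) of -0.33 ± 0.25 (SE; n = 6 and 7 arrays), APOB of 0.09 ± 0.19, the thyroid hormone carrier TTR of -0.08 ± 0.19 and CPS1, the first enzyme of the urea cycle, of -0.15 ± 0.19, with adjusted p from limma of 0.74, 0.92, 0.92 and 0.84. With E2P4T 5 the same differences were -1.07, -1.43, -0.87 and -0.90, and APOB thereby changed sign. CD68, a marker of macrophages, had 0.40 without the array (-0.03 with it), PTPRC, carried by all leukocytes, 0.24 (0.05), and the collagen gene COL1A1 -0.02 (0.06), none of them past the adjusted threshold of 0.05. The globin genes HBB and HBA, which mark blood in a biopsy, had -0.42 and -0.42 without it, and ranged from -0.99 to -0.19 and from -1.03 to 0.16 as single further arrays were left out. Dimmer probe sets of HBB had 0.55, -1.05 and 0.50 without E2P4T 5.

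No probe set passed an adjusted p of 0.05 when all 28 arrays entered the limma fit, and the lowest adjusted p was 0.42. At an unadjusted p under 0.05, 446 probe sets were higher in E2P4T (1.86% of 24016) and 748 were lower (3.11%). Without E2P4T 5, 1 probe set passed the adjusted threshold, on the lower side (0.00416%), and none on the higher side, while 387 (1.61%) were higher and 1377 (5.73%) lower at an unadjusted p under 0.05. The imbalance was larger among the dimmer probe sets. Among probe sets with a mean log2 signal of 7.62 or more, 309 were higher (2.57%) and 425 lower (3.54%), whereas below that level 78 were higher (0.650%) and 952 lower (7.93%). With all arrays the shares were 2.55% and 2.82% of the brighter and 1.17% and 3.41% of the dimmer probe sets. The median difference over all probe sets was -0.14, with -0.01 among the brighter and -0.44 among the dimmer probe sets (with E2P4T 5 it was -0.05, 0.00 and -0.18). The median signal of an array, before the log, ran from 190.4 to 322.15 in CO and from 178.25 to 243.7 in the 6 E2P4T arrays. It was highest in CO on CO 3 (322.15) and CO 7 (314.4). The split of higher and lower depended on the scaling: without E2P4T 5, centring each array on its median, which added 0.25 to every difference, gave 1130 higher and 699 lower, and quantile normalization gave 676 higher and 710 lower; with all arrays, quantile normalization gave 706 higher and 688 lower. Single arrays also moved these counts. Leaving out CO 6 as well raised the higher calls without E2P4T 5 to 900, leaving out CO 1 gave 648, leaving out E2P4T 6 gave 260 and leaving out P4T 4 gave 601 (with all arrays, leaving out CO 6 gave 778 higher), while the lower calls ranged from 921 without CO 3 to 1803 without CO 6.

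The probe set that passed was a dim one of ZNF317, a zinc finger protein of the KRAB family. Its log2 signal was 5.94 to 7.84 in CO (median 6.76) and 1.72 to 4.80 in the 6 E2P4T arrays (median 3.29), with 6.06 on E2P4T 5. The groups did not overlap without that array, and all 7 E2P4T arrays were below the CO mean. It fell by 3.60 ± 0.61 on the log2 scale (limma, adjusted p = 0.036), a value that depends on how such dim signals are treated, as the difference was -1.48 (adjusted p = 0.018 in limma) with 50 added before the log. Its E2P4T signals were not shown to lie above background. The probe set had -3.21 ± 0.64 with E2P4T 5 (adjusted p = 0.42). Estradiol alone and progesterone alone, which share the CO arrays, had -1.72 and -1.55 for it. The call was lost when any of 9 of the 13 CO and E2P4T arrays was left out, all but CO 6, CO 7, E2P4T 4 and E2P4T 6 (adjusted p up to 0.25 in limma), when only CO and E2P4T entered the fit (adjusted p = 0.56) and when each array was centred on its median (adjusted p = 0.067). A brighter probe set of ZNF317 had a log2 difference of -0.20 ± 0.40 without E2P4T 5.

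The genes with the lowest p on the higher side in E2P4T were of several functions. TPRKB, a subunit of the KEOPS complex that modifies transfer RNA, had log2 signals from 7.59 to 8.96 in CO (median 8.48) and from 8.90 to 9.64 in the 7 E2P4T arrays (median 9.26). Only the lowest E2P4T array reached into the CO range. The difference was 0.87 ± 0.24 with all arrays (1.82-fold; adjusted p = 0.93 in limma), and 0.87 ± 0.25 without E2P4T 5. SH3BGRL2, a small thioredoxin-like protein, ran from 9.83 to 11.25 in CO (median 9.93) and from 10.52 to 11.33 in the 7 E2P4T arrays (median 11.07). In CO, 4 of its arrays lay close together near the lowest value and 3 lay higher, into the E2P4T range, and the difference was 0.71 ± 0.21 with all arrays and 0.70 without E2P4T 5. TDP2, which removes trapped topoisomerase from DNA, ran from 9.35 to 10.87 in CO (median 10.05) and from 10.35 to 11.12 in the 6 E2P4T arrays other than E2P4T 5 (median 10.94), with overlap, and had a difference of 0.76 ± 0.23 with all arrays and 0.74 without E2P4T 5.

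ST3GAL5, the synthase of the ganglioside GM3, showed the largest difference of the 12 higher genes with the lowest p in either fit, 1.46 ± 0.45 with all arrays and 1.45 ± 0.47 without E2P4T 5 (2.72-fold), but its arrays were spread widely, from 5.04 to 9.37 in CO (median 7.90) and from 8.09 to 9.49 in the 7 E2P4T arrays (median 8.91). PTP4A2, a protein tyrosine phosphatase, ran from 10.79 to 12.36 in CO (median 11.34) and from 12.20 to 12.91 in the 6 E2P4T arrays other than E2P4T 5 (median 12.42), with 10.02 on E2P4T 5. Its difference was 0.99 ± 0.31 without that array and 0.63 ± 0.37 with it. PTS, an enzyme of tetrahydrobiopterin synthesis, had 0.75 without and 0.58 with that array, which stood at 10.55. The proton pump subunit ATP6V1A had 0.54 without E2P4T 5 and 0.56 with it, the ubiquitin receptor UBQLN1 0.57 and 0.32, and MYLIP, the ligase that marks the low density lipoprotein receptor for breakdown, 0.54 and 0.63. In ENPEP, an aminopeptidase that cleaves angiotensin II, DNAJB12, a chaperone of the endoplasmic reticulum membrane, and CDH1 (E-cadherin), as in MYLIP, E2P4T 5 was the highest of all 14 arrays, and the differences of the first 3 were 0.96, 0.90 and 0.92 with it and 0.71, 0.70 and 0.69 without it. In none of the 12 did the groups separate fully, and their adjusted p in limma were all 0.93 or above with all arrays and 0.67 without E2P4T 5. Dimmer probe sets of ST3GAL5 (1.02) and ENPEP (0.94) had the same sign without E2P4T 5, whereas those of DNAJB12 had -0.85 and -0.34 and those of ATP6V1A -0.80, -1.65 and 1.97.

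Groups that separated fully were counted with and without E2P4T 5. Without it, 30 of 24016 probe sets had every E2P4T array below every CO array (0.125%) and 5 the reverse (0.0208%), against 7 (0.0291%) and 2 (0.00833%) with all arrays, and among the brighter probe sets the counts were 12 and 3 without that array and 2 and 2 with it. C2CD2L, a lipid transfer protein at contacts of the endoplasmic reticulum with the cell membrane, ran from 8.43 to 9.25 in CO (median 8.84) and from 5.30 to 8.14 in the 6 E2P4T arrays other than E2P4T 5 (median 7.93). All 6 lay below the CO arrays, though E2P4T 5 had 10.03, above all of CO, and E2P4T 1 alone gave the lowest value. The difference was -1.33 ± 0.35, -0.89 with E2P4T 1 left out too, and -0.96 ± 0.40 with all arrays. PRRC2A, a proline-rich RNA-binding protein, also had no overlap, from 9.86 to 10.91 in CO (median 10.09) and from 9.15 to 9.71 in the 6 E2P4T arrays other than E2P4T 5 (median 9.54), with a difference of -0.74 ± 0.20. STAT5B, the transcription factor that carries the growth hormone signal to the nucleus, was the third named gene without overlap, from 8.55 to 10.49 in CO (median 9.14) and from 8.03 to 8.54 in the 6 E2P4T arrays other than E2P4T 5 (median 8.31). On E2P4T 5 it had 8.74, inside the CO range. Its difference was -0.88 ± 0.30 (1.85-fold) and -0.82 ± 0.29 with E2P4T 5.

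SDF2L1, a partner of chaperones in the endoplasmic reticulum, had the lowest p of the bright genes without E2P4T 5, -1.23 ± 0.31 (adjusted p = 0.67 in limma). Its arrays ran from 8.17 to 10.56 in CO (median 10.14) and from 8.17 to 9.23 in the 6 E2P4T arrays other than E2P4T 5 (median 8.61), and CO 6 alone made the groups overlap. With CO 6 left out as well, the difference was -1.51 and the adjusted p in limma was 0.048. With all arrays the difference was -0.92. FBXO15, an F-box protein, had -1.23, TRMT2A, a transfer RNA methyltransferase, -1.05, LIMD2, a LIM domain protein, -0.93 and SAG, an arrestin, -0.67, all without E2P4T 5 and with all 6 E2P4T arrays below the CO mean. With E2P4T 5, on which each of these had a value inside or above the CO range, they were -0.90, -0.79, -0.81 and -0.52, and HAPLN3, a link protein of hyaluronan, had -0.75. A dimmer probe set of FBXO15 had -0.17 without E2P4T 5. Among the lower genes that led with all arrays, TMEM120A, a membrane protein of the nuclear envelope, had -0.90 with E2P4T 5 and -0.83 without it, the retromer subunit VPS26B -0.64 and -0.56, the ubiquitin ligase TRIM47 -0.74 and -0.72, and muscle creatine kinase CKM -0.80 and -0.78.

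**Figure D2:**
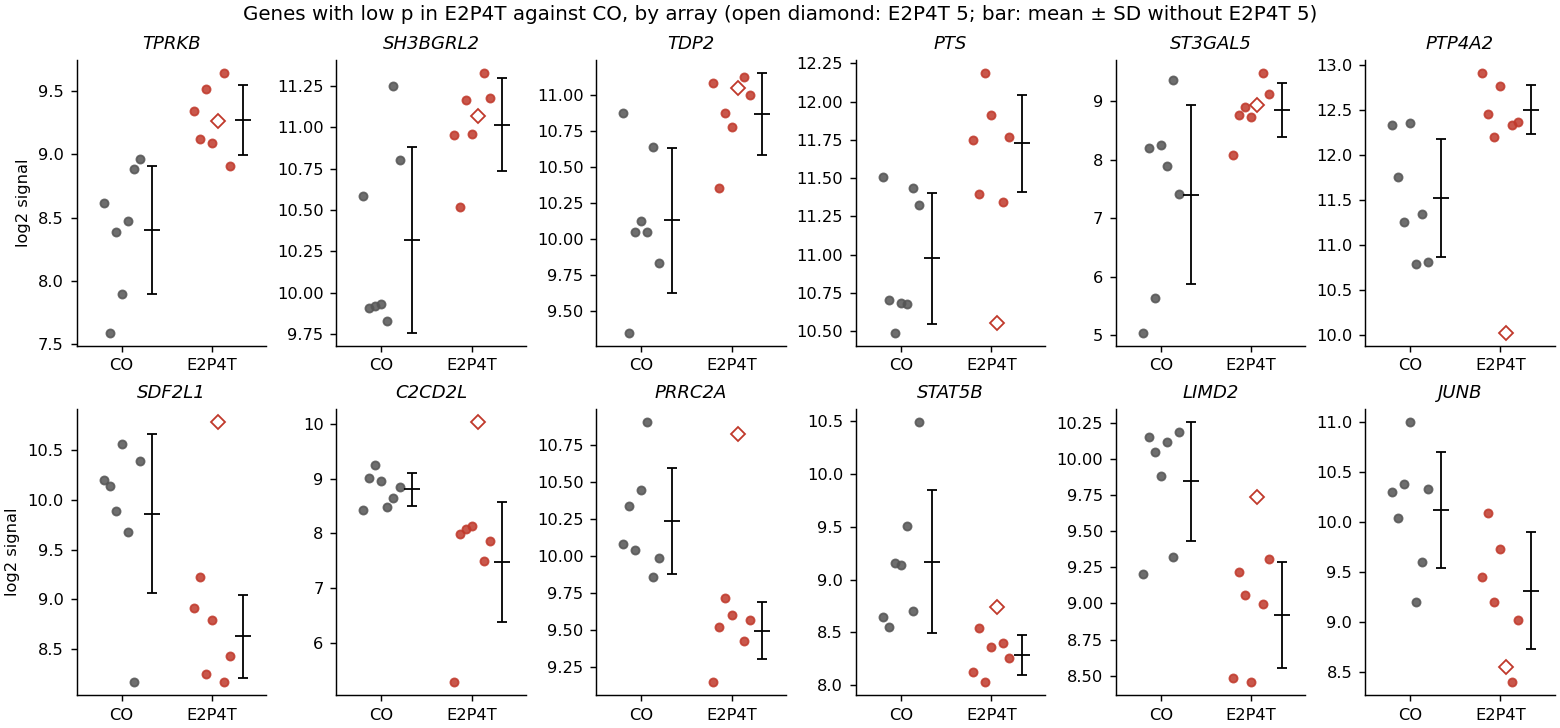
Log2 signal of 6 genes higher (top) and 6 genes lower (bottom) in E2P4T (red) than in CO (grey) on each array, with E2P4T 5 as an open diamond and bars at the mean ± SD of 7 CO and 6 E2P4T arrays. E2P4T 5 lies with its group for TPRKB, TDP2 and ST3GAL5 and opposite to it for PTP4A2, SDF2L1, C2CD2L and PRRC2A, and C2CD2L, PRRC2A and STAT5B show no overlap once it is set aside.

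The genes were also read by 22 lists of pathways and protein complexes, which held no probe set past the adjusted threshold in either fit. Subunits of the mitochondrial respiratory chain stood on the higher side in E2P4T with and without E2P4T 5. Of 37 complex I genes (NADH dehydrogenase), 28 had a positive difference without E2P4T 5. At an unadjusted p under 0.05, 4 of the 37 were higher and none lower, against 1.61% higher and 5.73% lower among all probe sets. Among the brighter probe sets, to which all 37 belonged, the shares were 2.57% and 3.54%. The median of the 37 was 0.17, beside -0.01 for the brighter probe sets. It stayed between 0.12 and 0.42 under centring, quantile normalization, a constant added before the log and the mean over a gene's probe sets. Of 37 genes of complexes II to V, 31 were positive, 2 at an unadjusted p under 0.05, with a median of 0.22 (0.16 to 0.47). With E2P4T 5, the medians were 0.22 and 0.29. On that array the mean log2 signal was 12.57 for complex I and 13.67 for complexes II to V. The other 27 arrays reached at most 12.47 and 13.55. For complex I, E2T and P4T, which share the CO arrays, had medians of 0.21 and 0.08. For complexes II to V they had 0.26 and 0.05, with P4T 4 included. The medians of E2P4T were not computed with a further CO or E2P4T array left out. CO 3 had the lowest mean log2 signal in CO for both lists. It had 11.42 for complex I (11.70 to 12.40 on the other CO arrays) and 12.36 for complexes II to V (12.88 to 13.39).

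NDUFA1, an accessory subunit of complex I, had log2 signals from 13.12 to 14.75 in CO (median 13.63) and from 14.13 to 14.64 in the 6 E2P4T arrays other than E2P4T 5 (median 14.43). All 6 lay above the CO mean, but within the range of CO, whose highest array exceeded them, and the difference was 0.62 ± 0.23 (1.54-fold). NDUFB3 had 0.46 ± 0.19, COX7C of cytochrome c oxidase 0.56 ± 0.22 and ATP5PF of ATP synthase 0.61 ± 0.24, each with all 6 arrays above the CO mean and adjusted p in limma of 0.67. The largest negative differences were -0.24 for NDUFA10 and -0.25 for ATP5ME. The mean log2 signal over the complex I genes overlapped between the groups, 11.42 to 12.40 in CO and 11.79 to 12.35 in the 6 E2P4T arrays. Of 21 genes of mitochondrial import and folding, 14 were positive (median 0.13), led by TIMM8A, a chaperone of the intermembrane space, with 0.68 ± 0.24, and the matrix chaperonin HSPE1 had 0.44.

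**Figure D3:**
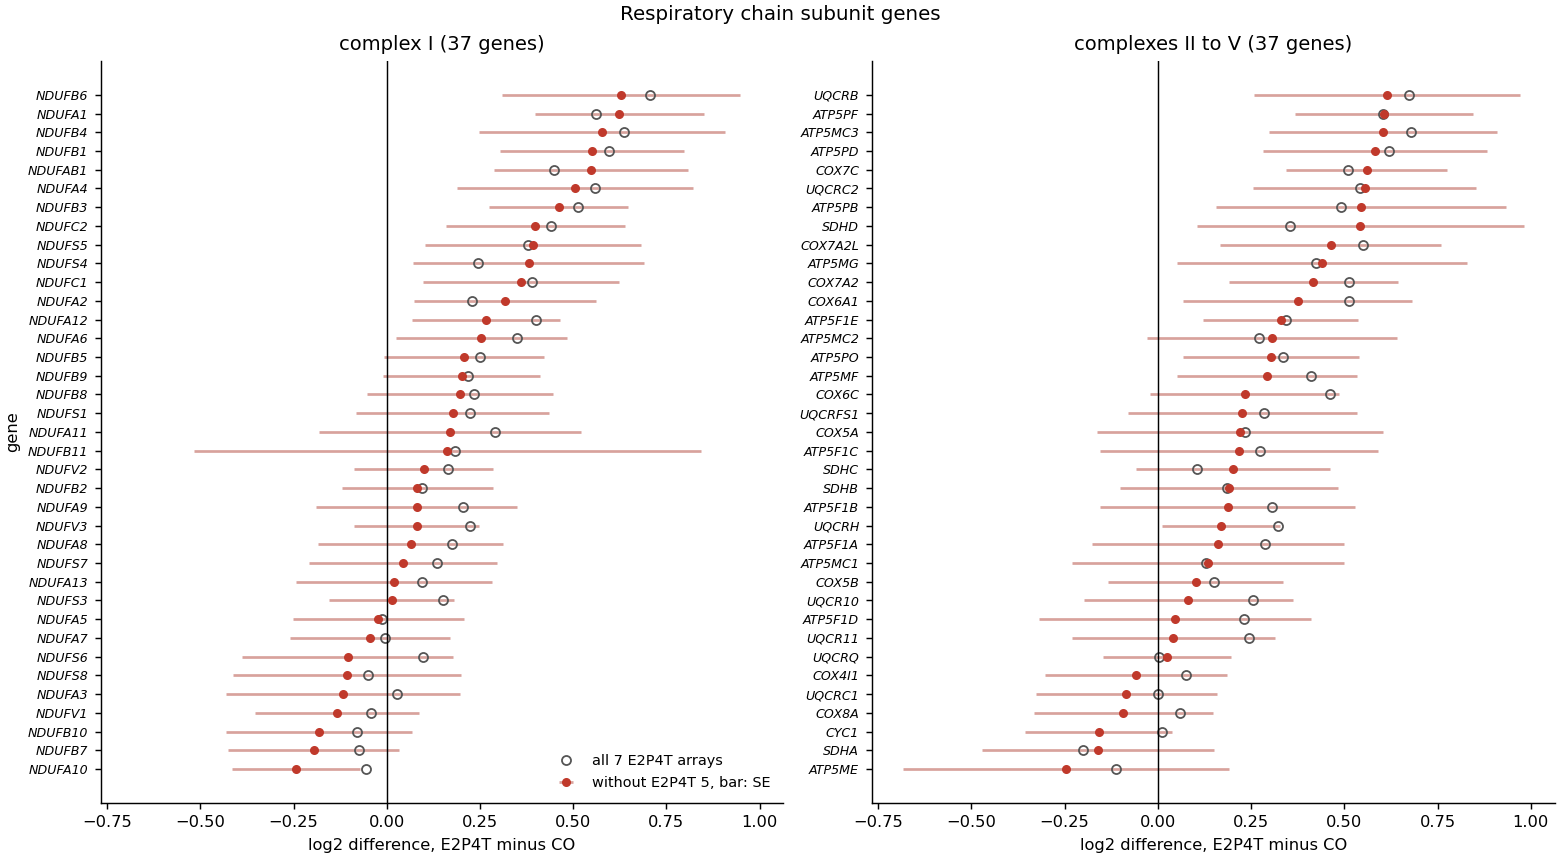
Log2 difference of E2P4T minus CO for each measured subunit gene of complex I (left) and complexes II to V (right), filled without E2P4T 5 with bars of 1 standard error and open with all arrays. Without E2P4T 5, 28 of 37 and 31 of 37 genes lie right of 0, the highest at 0.63 and 0.61.

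Acute phase genes, which the liver transcribes more during inflammation, stood on the lower side. Without E2P4T 5, 13 of 15 had a negative difference (median -0.36; -0.37 to -0.11 under the same alternatives), and 3 of them had an unadjusted p under 0.05, beside 5.73% lower among all probe sets and 3.54% among the brighter. Hepatocyte markers were lower too in 17 of 21 (median -0.24), and their part in these values was not tested. HP, the gene of haptoglobin, which binds free hemoglobin, varied most: from 8.71 to 16.79 in CO (median 13.91) and from 8.87 to 16.61 in the 6 E2P4T arrays other than E2P4T 5 (median 9.53). E2P4T 2 had 16.61, close to the highest CO arrays, whereas the other 5 were at or below 10.40, as was 1 CO array. The difference was -2.75 ± 1.27 (adjusted p = 0.67 in limma) and -3.94 with E2P4T 2 left out too. E2T and P4T, which share the CO arrays, had -2.82 and -2.30. LBP, which binds bacterial lipopolysaccharide, ran from 11.58 to 14.80 in CO (median 14.04) and from 12.27 to 13.82 in the 6 E2P4T arrays other than E2P4T 5 (median 12.46), overlapping, and had a difference of -0.99 ± 0.44. ITIH3, a heavy chain of inter-alpha-trypsin inhibitor, had -0.63 ± 0.27, hemopexin (HPX) -0.37 ± 0.20 and serum amyloid A3 (SAA3) -0.49 ± 0.35. HP, HPX and SAA3 were chosen after their values were seen. With E2P4T 5, the differences of HP, LBP, ITIH3, HPX and SAA3 were -3.00, -1.47, -1.20, -1.19 and -1.21. LBP, ITIH3, HPX and SAA3 were the lowest of the group on that array. The list's median was then -1.20, and 8 of 15 were lower at an unadjusted p under 0.05. With all arrays, 3.11% of all probe sets and 2.82% of the brighter were lower at that level. The mean log2 signal of the list was 8.98 on E2P4T 5, against 13.65 to 15.20 on the other 27 arrays.

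**Figure D4:**
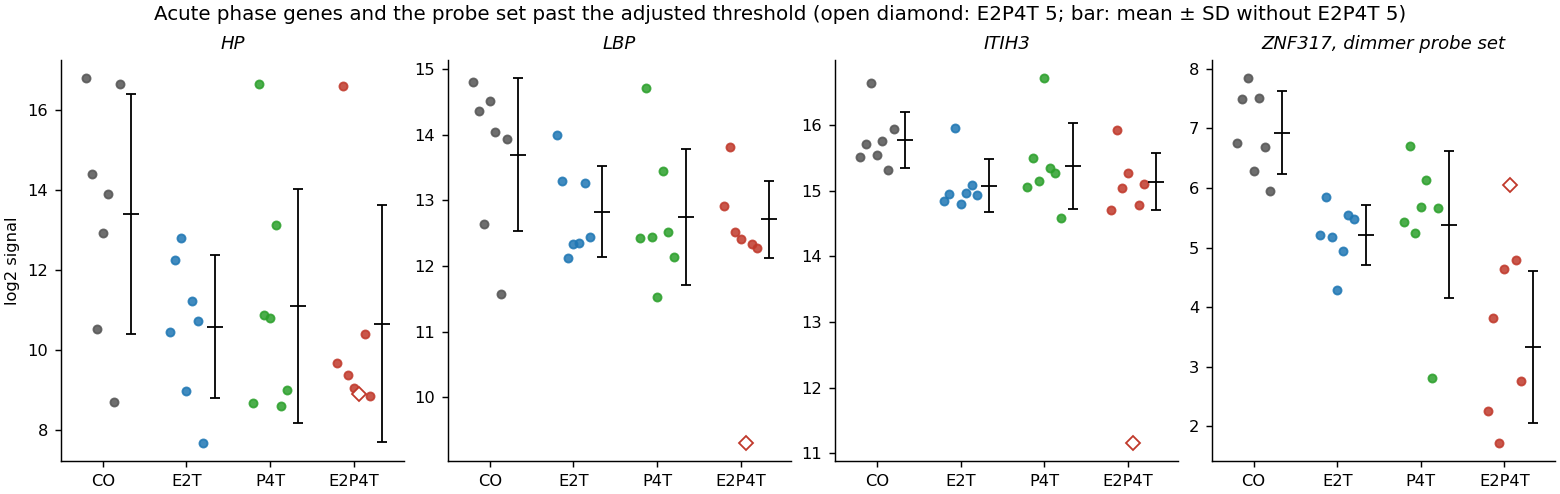
Log2 signal of HP, LBP, ITIH3 and the dim ZNF317 probe set on each array of CO (grey), E2T (blue), P4T (green) and E2P4T (red), with E2P4T 5 as an open diamond and bars at the mean ± SD without it. HP reaches 16.61 on E2P4T 2 and is at or below 10.40 on the other E2P4T arrays, and ZNF317 lies at 1.72 to 4.80 in E2P4T without E2P4T 5 and 5.94 to 7.84 in CO.

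Among genes of the interferon response, the lowest p were on the lower side. IRF9, the DNA-binding part of the interferon factor ISGF3, ran from 8.79 to 10.44 in CO (median 9.58) and from 7.52 to 9.49 in the 7 E2P4T arrays (median 8.82), overlapping, with -0.85 ± 0.27 with all arrays and -0.64 ± 0.25 without E2P4T 5. UBA7, the activating enzyme for the ubiquitin-like ISG15, had likewise -0.81 ± 0.26 and -0.75, and IRF7, a factor that induces interferon genes, -0.41 and -0.69. CO 2 was the highest CO array for IRF9 (10.44), UBA7 (12.22) and IRF7 (11.52). With 1 more array left out besides E2P4T 5, the 3 differences shrank at most to -0.51, -0.52 and -0.44. Of the 18 interferon-stimulated genes, 14 were negative without E2P4T 5 with a median of -0.20, which turned to 0.06 when arrays were centred on their medians. Their mean log2 signal was 10.74 on CO 2, 8.46 to 9.07 on the other CO arrays and 8.56 to 9.31 on the 6 E2P4T arrays. The list's median without CO 2 was not computed. JUNB, a member of the AP-1 transcription factors, was 1 of 18 immediate early genes with an unadjusted p under 0.05, a share close to the 5.73% lower among all probe sets. It had a median of 10.29 and a lowest value of 9.20 in CO, ran from 8.40 to 10.09 in the 7 E2P4T arrays (median 9.20), overlapping, and had -0.92 ± 0.28 with all arrays and -0.81 without E2P4T 5. Its relative FOSB had -0.83 ± 0.61 with all arrays. In the unfolded protein response, 3 of 20 genes had an unadjusted p under 0.05 and all were on the lower side: SDF2L1, TXNDC11 (-0.46 ± 0.17), a thioredoxin domain protein, and the cochaperone DNAJB11 (-0.86), named after its value was seen. Over all probe sets 1.61% were higher and 5.73% lower at that level. The median of these 20 was 0.03.

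Steroid receptors and the growth hormone axis held no gene past the adjusted threshold. Of 6 steroid receptors and binders, 1 was higher and 1 lower at an unadjusted p under 0.05 without E2P4T 5. NR3C1, the glucocorticoid receptor, had 0.44 ± 0.19 without E2P4T 5 and 0.35 with it, whereas a dimmer probe set had -1.30 and -0.74. PGR, the progesterone receptor, was dim, from 6.04 to 7.82 in CO (median 7.52) and from 4.73 to 6.39 in the 6 E2P4T arrays other than E2P4T 5 (median 6.19), with a difference of -1.24 ± 0.60 and 8.81 on E2P4T 5. ESR1, the main estrogen receptor of liver, chosen after its values were seen, was dimmer still, from 3.09 to 6.06 in CO (median 5.29), and its difference of 0.39 ± 0.78 lay within its spread. Of 17 genes of the growth hormone and IGF axis, 3 had an unadjusted p under 0.05, all lower: STAT5B, the IGF-binding protein IGFBP6 (-0.64 ± 0.29) and IGFBP5 (-1.90), named after its value was seen, beside 1.61% higher and 5.73% lower among all probe sets. IGFBP6 had -0.41 with E2P4T 2 left out too. IGF1 itself, likewise chosen afterwards, had -0.41 ± 0.25, and on E2P4T 5 it was above all CO arrays at 10.83. The list's median was -0.18 without E2P4T 5 and turned to 0.07 under centring. Of 13 plasma proteins known to respond to estrogens, 6 were positive and 7 negative without E2P4T 5, none at an unadjusted p under 0.05. Their median was -0.06, or 0.19 under centring. Apolipoprotein A1 (APOA1) had -0.42 ± 0.22 and the fibrinogen chain FGG -0.36 ± 0.23. With E2P4T 5 all 13 were negative with a median of -0.89.

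Several lists of metabolism also depended on E2P4T 5. Of 25 genes of steroid and drug metabolism, 22 were negative with that array (median -0.35) and 19 were positive without it (median 0.16). AKR1C3, a ketosteroid reductase, had 0.54 ± 0.27 and UGT2B10, which joins glucuronic acid to steroids, 0.59 ± 0.31, against -0.24 and -0.61 with the array. In lipid synthesis, fatty acid synthase (FASN) had -0.83 ± 0.33 with log2 signals from 10.49 to 11.91 in CO (median 11.25) and from 9.27 to 11.36 in the 6 E2P4T arrays other than E2P4T 5 (median 10.48), overlapping, and -0.65 with E2P4T 5. MTTP, which loads lipid onto apolipoprotein B, went the other way at 0.53 ± 0.24 with all 6 arrays above the CO mean, and was at -0.02 with E2P4T 5. Of 18 genes of cholesterol synthesis and uptake, 11 were negative (median -0.14, or 0.11 with arrays centred on their medians). Mevalonate decarboxylase (MVD) had -0.52 ± 0.22 and phosphomevalonate kinase (PMVK) -0.32 ± 0.18. The 21 genes of fatty acid oxidation had a median of 0.12, with the pyruvate dehydrogenase kinase PDK4 at 0.51 and the electron carrier subunit ETFA at 0.52 (0.27 with CO 3 left out too).

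In nitrogen and glucose metabolism the members went both ways. Of 30 genes of the urea cycle and amino acid breakdown, 15 were positive and 15 negative without E2P4T 5. A pair of urea cycle enzymes had opposite signs: OTC, which makes citrulline, 0.64 ± 0.28, and ASL, which splits argininosuccinate, -0.49 ± 0.22. ASL ran from 13.26 to 14.57 in CO (median 14.07) and from 13.31 to 13.89 in the 6 E2P4T arrays other than E2P4T 5 (median 13.49), and OTC from 10.77 to 12.98 in CO (median 12.22) and from 12.38 to 13.06 in the 6 E2P4T arrays other than E2P4T 5 (median 12.83), with overlap in both. A dimmer ASL probe set had 0.12. Pyruvate carboxylase (PC), which feeds pyruvate into gluconeogenesis, had -0.48 ± 0.22 without E2P4T 5 and -0.33 with it, and MMAB, which makes the cobalamin cofactor used with propionate, -0.40 and -0.59. Of the 20 genes in that list, 15 were positive (median 0.17). The 13 bile acid genes had a median of 0.07, with the FGF coreceptor KLB at 0.39 and the racemase AMACR at 0.71, neither at an unadjusted p under 0.05. With CO 3 left out too AMACR had 0.15, and dimmer probe sets of KLB had 0.90, 0.23 and -1.55.

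The remaining lists held few or no members with low p. Among 26 proteasome genes 20 were positive (median 0.10). The proteasomal ATPase PSMC1 had -0.36 ± 0.16, opposite to its list, and the dim PSMD13 1.52 ± 0.75. The 10 genes of insulin signaling (median -0.08), the 7 of the circadian clock (0.03), the 23 of the cell cycle (-0.20) and the 23 of RNA processing (0.04) held no member at an unadjusted p under 0.05. With arrays centred on their medians, these lists had medians of 0.17, 0.28, 0.05 and 0.29 in that order. Their 2 lowest p belonged to PIK3R1 (-1.48) and RPS6KB1 (-0.54; a dimmer probe set had 2.15), to HLF (0.21; a dimmer probe set had 1.47) and PER2 (0.23), to CCNB1 (-1.49) and MCM4 (-0.43), and to U2AF1 (-0.26) and RBM25 (1.05). With 50 added before the log, PIK3R1 had -0.59, CCNB1 -0.52 and RBM25 0.34, and dimmer probe sets of RBM25 had -0.36 and -1.29. Markers of tissues outside the liver lobule were on the lower side without E2P4T 5, with medians of -0.58 for 9 muscle, -0.64 for 6 adipocyte, -0.59 for 6 red blood cell and -0.40 for 13 kidney genes, and most of these genes were among the dimmer probe sets, whose median was -0.44. The 10 Kupffer and macrophage markers had 0.14, 15 stellate and matrix markers 0.12, 14 leukocyte markers -0.19, 11 endothelial markers -0.05 and 7 cholangiocyte markers -0.18. Under centring these medians were 0.39, 0.37, 0.06, 0.20 and 0.07 in that order.

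**Figure D5:**
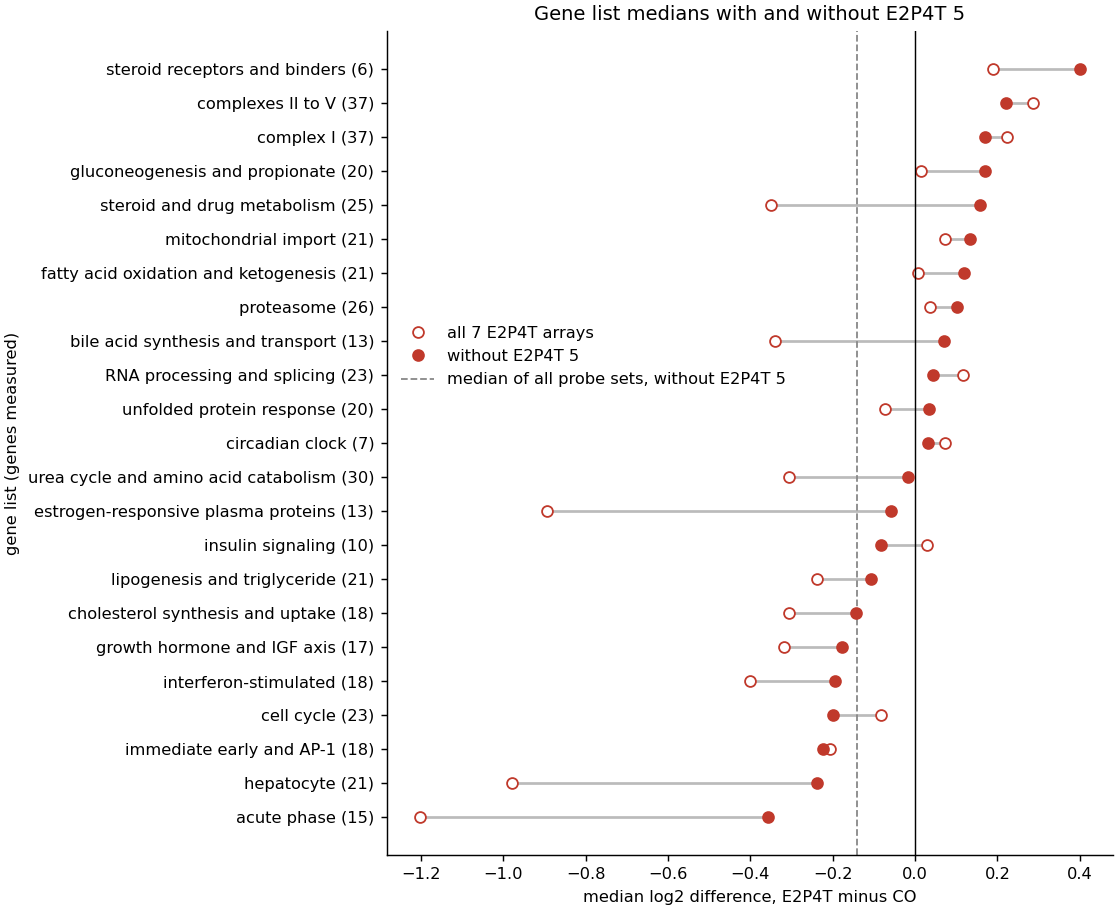
Median log2 difference of E2P4T minus CO of each gene list, open with all 7 E2P4T arrays and filled without E2P4T 5, with the number of genes measured in parentheses and a dashed line at the median of all probe sets without E2P4T 5 (-0.14). The acute phase list moves from -1.20 to -0.36 and steroid and drug metabolism from -0.35 to 0.16, while complexes II to V stay at 0.29 and 0.22.

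Whether giving both hormones differed from giving either was tested in the same fit without E2P4T 5. No probe set passed an adjusted p of 0.05 in limma for E2P4T against E2T, where 196 were higher (0.816%) and 212 lower (0.883%) at an unadjusted p under 0.05, or for E2P4T against P4T, where 143 were higher (0.595%) and 427 lower (1.78%). The interaction, that is the difference of E2P4T from the sum of both single treatments, had no adjusted call either, with 477 probe sets above it (1.99%) and 186 below (0.774%) at an unadjusted p under 0.05. With all arrays none of these had an adjusted call either, and the shares at an unadjusted p under 0.05 were 1.89% higher and 0.558% lower than E2T, 1.29% and 0.974% for P4T, and 3.04% and 0.591% for the interaction. These comparisons include P4T 4, and the balance against P4T turned without it: with P4T 4 left out too, 242 probe sets were higher and 216 lower than P4T, 239 and 259 than E2T, and 874 above and 231 below the sum, again with 0 adjusted calls in limma. The interaction without P4T 4, and the P4T values without it given last, were chosen after seeing the data. Set side by side, with the CO arrays shared by all 3, TPRKB had 0.87 in E2P4T, 0.83 in E2T and 0.62 in P4T. The same values were 0.70, 0.77 and 0.47 for SH3BGRL2, -1.23, -0.76 and -0.80 for SDF2L1 and -0.88, -0.51 and -0.65 for STAT5B. C2CD2L had -1.33 in E2P4T, -0.49 in E2T and -0.27 in P4T, and its direct differences from the single treatments, -0.83 and -1.06, did not pass the adjusted threshold. For NDUFA1 the values were 0.62, 0.64 and 0.43, and for JUNB -0.81, -0.71 and -0.19. Without P4T 4, the values in P4T were 0.69 for TPRKB, 0.53 for SH3BGRL2, -0.87 for SDF2L1, -0.76 for STAT5B, -0.45 for C2CD2L, 0.58 for NDUFA1, -0.32 for JUNB, -2.25 for HP and -1.60 for the dim probe set of ZNF317.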

How the data were processed

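Gene expression was measured on 28 Affymetrix Bovine GeneChip arrays, 1 for each liver biopsy. The authors computed the deposited signal intensity of each probe set with the MAS5 algorithm, per the submitters' notes, which scales every array to a common trimmed mean, and did not pool replicates. The table held 24128 entries, of which 112 controls were left out and 24016 probe sets were tested. Of these, 13292 had 1 gene symbol, 86 several and 10638 none, and the 9155 genes with 1 symbol were each represented by the probe set of the highest mean. All 28 value columns belonged to labelled samples (0 unmapped). No 2 arrays held identical values.

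Intensities were taken to log2 with no further normalization and fitted with limma (version 3.58.1, R 4.3.3; lmFit and eBayes with a trend), with the 4 groups in 1 fit and Benjamini-Hochberg adjustment over all 24016 probe sets. The fit was made with all arrays and again without E2P4T 5, and an adjusted p under 0.05 was the threshold. The script was tested on simulated data. A mixed model with cow and period was not run, since the labels give neither, and detection calls were not analysed here. MAS5 intensities of dim probe sets are noisy on the log2 scale, and a scaling to a common mean lets an array with a few very bright genes, or with other RNA, shift the rest.

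Named genes were the 8 with the lowest p in each direction and fit among genes with a mean log2 signal of 7.62 or more, the 2 with the lowest p of each pathway list without E2P4T 5, and a set of cell type markers. ESR1, IGF1, HP, HPX and SAA3, and others named from within a list, were chosen after their values were seen. The members and the 32 lists, for which 551 of 703 entries were measured, were chosen with earlier results of these data known. Alternatives were leaving out each array, only the groups compared, quantile normalization, centring on the array median, a constant of 50 added before the log, dim probe sets left out, variances not moderated, array weights and the replicate number as a block.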

Additional observations from a re-analysis of the deposited data

Results flagged for a closer look

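Of 300 groups of 6 or 7 arrays examined, 45 had 1 array further from the rest than Dixon's critical value, which chance alone gives in about 5% of groups. E2P4T 5 was that array in 35 of the 37 found among the 7 E2P4T arrays. It was the lowest on the log2 scale for AKR1C3 (8.73), ALB (12.06), APOA1 (6.82), APOB (5.00), ARHGEF5 (4.81), ASL (11.29), CD68 (8.13), CPS1 (10.95), FGG (10.73), HPX (10.23), ITIH3 (11.16), KLB (7.38), LBP (9.31), MTTP (9.20), OTC (8.91), PDK4 (9.70), PMVK (9.88), PTP4A2 (10.02), SAA3 (5.89), TTR (10.60), UBQLN1 (11.56) and UGT2B10 (3.97). Its marker scores were the lowest for hepatocytes (10.37) and for Kupffer cells and macrophages (7.79), as was its correlation with the median CO array (0.691). It was the highest for CDH16 (14.42), ENPEP (13.07), PGR (8.81), PRRC2A (10.82) and SDF2L1 (10.78), for the cholangiocyte (11.50), kidney nephron (11.07) and adipocyte (8.32) scores, and for the median signal (512).

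The other arrays singled out were E2P4T 3 for HBA (2.83) and E2P4T 2 for HP (16.61), the latter also with E2P4T 5 left out. Without E2P4T 5 they further included E2P4T 1 for C2CD2L (5.30), E2P4T 4 for DNAJB12 (9.18), E2P4T 7 for PGR (4.73) and E2P4T 2 for TIMM8A (11.84). In CO they were CO 1 for COL1A1 (2.07), CO 6 for SDF2L1 (8.17) and CO 3 for the mean log2 signal of the hybridisation spikes (16.45). The spikes, which no comparison of genes used, averaged 18.44 on E2P4T 5, above every CO array.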

How the results depend on the processing

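Of 4225 alternative values of named genes, 4131 kept their direction and their side of the threshold and 78 values, in 19 genes, changed sign. The first count was largely fixed beforehand. Of the 174 gene results varied, only the dim ZNF317 probe set without E2P4T 5 was past the threshold. Leaving out P4T 4, fitting only the groups compared or not moderating the variances cannot change a difference of E2P4T from CO. With all arrays, quantile normalization gave 706 probe sets higher at an unadjusted p under 0.05 (446 in the fit as reported), only the groups compared 276, and array weights 996 higher and 1721 lower (748), while the brighter probe sets alone gave 338 lower. Leaving out 1 array gave 300 to 778 higher, 506 to 1377 lower and 0 to 1 adjusted lower calls. Without E2P4T 5, the higher count of 387 became 601 with P4T 4 left out too, 676 under quantile normalization, 1130 under centring and 1065 with array weights, and the lower count of 1377 became 710, 699 under centring and 460 among the brighter probe sets. Leaving out 1 more array gave 260 to 900 higher, 921 to 1803 lower and 0 to 2 adjusted lower calls. With P4T 4 left out too, 242 probe sets instead of 143 were higher and 216 instead of 427 lower than P4T, and 874 instead of 477 lay above the interaction's sum, the last chosen after seeing the data. The 1 adjusted lower call became 0 with only the groups compared, quantile normalization, centring, array weights or the fixed replicate block. The count was also 0 with dim probe sets left out by either filter. Both filters took the ZNF317 probe set out of the test, so they did not retest it. Equal replicate numbers were not taken as pairs, since 3 of 6 correlations were above 0.1 (-0.10 to 0.49) and 2 of 6 arrays were closest to their own number, and the fixed replicate block gave 565 higher and 830 lower with all arrays and 484 and 1641 without E2P4T 5. With all arrays, signs turned under quantile normalization for OTC (-0.14), PTPRC (-0.090) and UMOD (0.29), under centring for CD68 (0.031) and MTTP (0.041), with 50 added for COL1A1 (-0.26) and UMOD (0.27), and with array weights for AKR1C3 (0.41), CD68 (0.26), CDH16 (-0.40), KLB (0.29), MTTP (0.53) and UGT2B10 (0.54). Without E2P4T 5 they turned under quantile normalization for ALB (0.11), CDH16 (0.14), COL1A1 (0.23), CPS1 (0.12), FGG (0.0091), HBA (0.021) and TTR (0.12), under centring for CDH16 (0.10), COL1A1 (0.23), CPS1 (0.10) and TTR (0.17), and for COL1A1 with array weights (0.019) and the fixed block (0.10). With 1 array left out of all, ranges crossed 0 for AKR1C3 (-0.42 to 0.54), AMACR (-0.061 to 0.96), APOB (-1.74 to 0.085), CD68 (-0.21 to 0.40), CDH16 (-0.16 to 1.38), COL1A1 (-0.78 to 0.35), HBA (-0.97 to 0.14), HLF (-0.033 to 0.21), KLB (-0.51 to 0.39), MTTP (-0.19 to 0.53), OTC (-0.14 to 0.64), PER2 (-0.13 to 0.27), PTPRC (-0.13 to 0.24), UGT2B10 (-0.98 to 0.59) and UMOD (-0.96 to 0.47), and without E2P4T 5 for CDH16 (-0.61 to 0.19), COL1A1 (-0.86 to 0.26), HBA (-1.03 to 0.16) and TTR (-0.14 to 0.00010). Without E2P4T 5, 30 of 87 named genes moved by over 1.5 times with 1 more array left out, 13 of them with CO 3. List medians kept 1 sign under the alternatives computed for them in 25 of 32 lists with all arrays and in 17 without E2P4T 5. Apart from the settings that leave out arrays or probe sets, the cause of these changes was not tested.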
